A study of Homo sapiens with 6 samples.

Results

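The Krüppel-like factors (KLF) are DNA-binding proteins, and 10 of them other than the erythroid factor KLF1 were followed here: KLF2, KLF3, KLF4, KLF5, KLF6, KLF7, KLF9, KLF10, KLF11 and KLF13. The set of genes was chosen with earlier results of these data known, and their transcripts were taken by gene symbol in GENCODE release 44, which gave 53 transcripts of 10 genes among 62252 genes in all. RNA was taken from K562, a human erythroid leukemia line grown in suspension, in 3 libraries from cells given 10 µM of the cell-permeable iron chelator 21H7 overnight (Chelator) and 3 from cells given an equal volume of the solvent alone (DMSO). The comparison asks what iron chelation does to mRNA levels, and it covers 1 cell line, 1 dose and 1 time. Polyadenylated RNA was sequenced in read pairs, and salmon assigned between 78615500 and 90383641 estimated counts to each DMSO library and between 85449857 and 101094957 to each Chelator library.

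KLF proteins bind GC-rich and CACCC sequences through a C-terminal block of C2H2 zinc fingers, while their N-terminal parts differ and bring in partners. KLF2, KLF4, KLF5, KLF6 and KLF7 mostly activate transcription with acetyltransferases such as EP300, KLF3 represses with the corepressor CTBP, and KLF9, KLF10, KLF11 and KLF13 repress with SIN3A. In red cell precursors KLF1 turns on globin and other erythroid genes and also KLF3, whose product can occupy the same CACCC sites, and several of the other members are early response genes with short-lived mRNAs.

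The promoters of KLF2, KLF4 and KLF6 are shown because these 3 genes of the activating group were called higher with the chelator and each has 1 RefSeq start. Each line is the 250 bases before the RefSeq start (GRCh38.p14), read in the direction of the gene, with every GGGCGG (the GC box bound by SP and KLF proteins, either strand) in capitals, and in KLF2 also the MEF2 box, the sequence bound by MEF2 factors. The windows lie at chr19:16324576-16324825 on the plus strand for KLF2, chr9:107489770-107490019 on the minus strand for KLF4 and chr10:3785210-3785459 on the minus strand for KLF6.
KLF2: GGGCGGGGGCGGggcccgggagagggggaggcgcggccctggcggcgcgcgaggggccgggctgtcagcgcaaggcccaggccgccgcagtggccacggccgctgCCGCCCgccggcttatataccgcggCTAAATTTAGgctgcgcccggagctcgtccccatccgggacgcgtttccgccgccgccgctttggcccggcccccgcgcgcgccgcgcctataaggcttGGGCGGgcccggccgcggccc
KLF4: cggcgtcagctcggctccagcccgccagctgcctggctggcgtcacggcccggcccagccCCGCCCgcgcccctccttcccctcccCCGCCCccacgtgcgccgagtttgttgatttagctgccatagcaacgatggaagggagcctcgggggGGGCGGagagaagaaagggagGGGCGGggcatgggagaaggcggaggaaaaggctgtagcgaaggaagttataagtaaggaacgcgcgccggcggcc
KLF6: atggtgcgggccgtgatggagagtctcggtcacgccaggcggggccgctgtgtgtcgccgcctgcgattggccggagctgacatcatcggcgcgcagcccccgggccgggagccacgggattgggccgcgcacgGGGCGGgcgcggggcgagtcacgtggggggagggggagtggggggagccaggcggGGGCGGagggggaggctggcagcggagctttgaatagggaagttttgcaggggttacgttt

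The KLF2 and KLF4 windows each held 4 GGGCGG sequences and the KLF6 window held 2, and their GC content was 80% in KLF2, 69.2% in KLF4 and 72.4% in KLF6. RefSeq promoter windows, from 250 bases before to 50 bases after the start, were at hand for 8 of the 10 members (13 windows, several genes having more than 1 start). GGGCGG was found in 8 of these 13 windows, from 7 genes, and in 45% of all 35116 windows. The pentamer CACCC, searched on both strands like every other motif, was found in 7 of 13 member windows and in 59.9% of all windows. ACGTG or GCGTG, the core that hypoxia-inducible factors bind, was found in 10 of 13 and in 48.4%, and these matches may overlap the others. The MEF2 box was found only in the KLF2 window among the 13, starting 120 bases before the start, and in 2.99% of all windows. A CArG box, which serum response factor binds, was found in 1 KLF7 window (1.29% of all), and the cyclic AMP response element TGACGTCA in 1 KLF11 window (1.85% of all). These matches describe letters, not occupied sites.

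KLF mRNA mostly rose with the chelator. By the DESeq2 Wald test 5 of the 10 members passed both thresholds (a Benjamini-Hochberg adjusted p below 0.05 and a log2 fold change past 1 in size), all higher in Chelator: KLF2, KLF4, KLF6, KLF7 and KLF10. Among the 24542 genes with an adjusted p, 8.18% were called higher and 2.60% lower. At the adjusted p alone, 8 members were higher (KLF5, KLF9 and KLF11 besides the 5; background 19.5%), KLF3 was lower (background 18.3%), and KLF13 did not pass, so 9 passed in either direction where 37.7% of genes did. The normalized counts of all 10 members did not overlap between groups, against 49.2% of genes in either direction. The median log2 fold change of the 10 was 1.06, and it was 0.0158 over those 24542 genes. Since the 10 were chosen with such results known, these counts and the median describe them and are no test of the family. In RNA from a whole culture, a change in the share of cells that express a gene and a change in RNA per cell cannot be told apart.

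**Figure D1:**
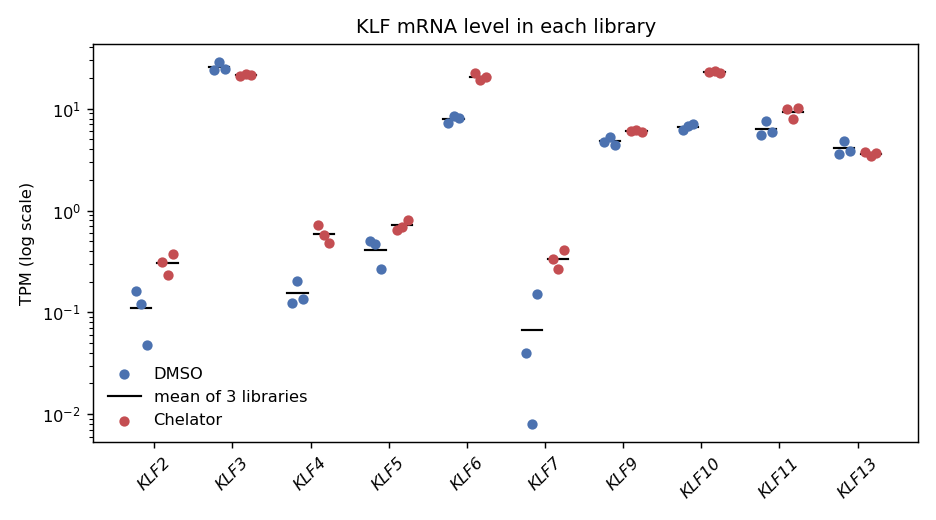
Level of each KLF gene in each library, in TPM (counts corrected for transcript length and scaled to the same total in every library) on a log axis, with DMSO libraries in blue, Chelator libraries in red and a bar at the mean of 3. The red points of KLF6 (19.2 to 22.5 TPM) and KLF10 (22.5 to 23.5 TPM) lie far above the blue ones, those of KLF3 lie below, and those of KLF13 mix with the blue ones.

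KLF10, a repressor known as a TGF-beta inducible early gene (ENSG00000155090, chr8:102648784-102655725, minus strand, GRCh38 as for all loci), stood at 6.17, 6.77 and 7.02 TPM in DMSO and at 23.1, 23.5 and 22.5 TPM in Chelator. All 3 Chelator libraries were close together and far above every DMSO library. Its normalized count went from 1225 ± 119 to 4140 ± 121 (SD, n = 3), 3.38-fold, with a log2 fold change of 1.76 ± 0.0935 (SE) and an adjusted p of 1.48e-76 (DESeq2). This was the smallest adjusted p of the 10, and KLF10 was also called when tested against a log2 fold change of 1 rather than 0 (adjusted p = 7.98e-14, DESeq2), a test that 2.51% of all genes passed in the higher direction. The genes whose pattern over the 6 libraries came nearest to that of KLF10, out of 13492 genes averaging 100 or more normalized counts, were CAPG, GPAT3 and LINC02772, with root mean square differences of 0.039, 0.0779 and 0.0785 on the log2 scale. This list for KLF10 was added after its values were seen.

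KLF11, the nearest paralog of KLF10 and likewise TGF-beta inducible (ENSG00000172059, chr2:10042849-10054836, plus strand), had 5.55, 7.5 and 5.85 TPM in DMSO and 10, 7.87 and 10.1 TPM in Chelator. The groups did not overlap, but the lowest Chelator library in TPM lay just above the highest DMSO library. That Chelator library had the most estimated counts of KLF11 (2294, against 2180 and 2043), with 0 on the 653-base transcript KLF11-203. Its mean effective length was 3282 bases, against 2621 and 2681 in the other Chelator libraries, so the TPM depended on how reads were placed. Normalized counts rose from 1462 ± 98.9 to 2139 ± 337 (SD, n = 3), with a log2 fold change of 0.55 ± 0.124 (SE, adjusted p = 5.62e-05, DESeq2), below the fold threshold. Within each library the log2 ratio of KLF10 to KLF11 in TPM was 0.09 ± 0.21 in DMSO and 1.31 ± 0.23 in Chelator (SD, n = 3), a difference of 1.22 (1.34 with estimated counts in place of TPM) from paralogs that were nearly level in DMSO. That ratio did not overlap between groups, and the two-sided exact permutation test gave p = 0.1, the smallest that 3 against 3 libraries allow, or 0.2 adjusted over the 4 paralog pairs compared.

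KLF9, a repressor induced by glucocorticoid and thyroid hormone in other tissues (ENSG00000119138, chr9:70384604-70414657, minus strand), measured 4.7, 5.26 and 4.42 TPM in DMSO against 6.04, 6.17 and 5.85 TPM in Chelator. Every Chelator library was higher, by a small margin. The log2 fold change was 0.30 ± 0.0859 (SE, adjusted p = 0.00187, DESeq2), and it was 0.20 with an adjusted p of 0.0972 (DESeq2) once changes were centred on the mean over all genes.

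KLF13, its paralog, which activates CCL5 in T cells (ENSG00000169926, chr15:31326835-31435665, plus strand), had 3.61, 4.86 and 3.81 TPM in DMSO and 3.72, 3.46 and 3.65 TPM in Chelator. These TPM ranges overlapped, with the second DMSO library highest. The log2 fold change was -0.20 ± 0.0947 (SE) with an adjusted p of 0.0858 (DESeq2). It passed with the same sign under the centring (-0.30, adjusted p = 0.00847, DESeq2), after GC and length trends were removed (-0.35, adjusted p = 5.94e-05, DESeq2) and without Chelator replicate 1 (-0.24, adjusted p = 0.0474, DESeq2). The log2 ratio of KLF9 to KLF13 was 0.24 ± 0.14 in DMSO and 0.74 ± 0.08 in Chelator (SD, n = 3), again with no overlap and with the smallest possible exact permutation p of 0.1 (0.2 adjusted).

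KLF6, an activator studied as a tumor suppressor in prostate and liver (ENSG00000067082, chr10:3775996-3785281, minus strand), had 7.27, 8.4 and 8.18 TPM in DMSO and 22.5, 19.2 and 20.4 TPM in Chelator. The groups were far apart, and the 3 libraries of each were close together. Normalized counts rose 2.56-fold, from 2201 ± 153 to 5630 ± 618 (SD, n = 3), with a log2 fold change of 1.36 ± 0.0994 (SE, adjusted p = 2.15e-40, DESeq2). With KLF10 it was the only member still called against a log2 fold change of 1 (adjusted p = 0.0146, DESeq2).

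KLF4, a pluripotency and epithelial differentiation factor (ENSG00000136826, chr9:107484852-107490482, minus strand), was scarce, at 0.124, 0.202 and 0.136 TPM in DMSO and 0.714, 0.578 and 0.476 TPM in Chelator. These levels rested on 29, 39 and 26 estimated counts in DMSO and on 166, 152 and 101 in Chelator, and every Chelator library was well above DMSO. The log2 fold change of 1.93 ± 0.343 (SE, adjusted p = 1.50e-07, DESeq2) corresponds to a 3.8-fold rise.

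KLF2, which with KLF4 answers blood flow in endothelium through the kinase MAPK7 and MEF2 factors (ENSG00000127528, chr19:16324826-16328685, plus strand), was lower still, with 37, 23 and 10 estimated counts in DMSO and 77, 65 and 89 in Chelator. In TPM this was 0.161, 0.12 and 0.0472 against 0.311, 0.232 and 0.37. The groups stayed apart, but the DMSO libraries were spread over a wide range. Its log2 fold change of 1.44 ± 0.488 (SE, adjusted p = 0.0101, DESeq2) rested on single libraries: without DMSO replicate 3 it was 1.10 (adjusted p = 0.0553), without Chelator replicate 1 it was 1.41 (0.0613) and without Chelator replicate 3 it was 1.29 (0.0971, all DESeq2), each short of the threshold. With GC and length trends removed the KLF2 change was 1.16 (adjusted p = 0.0462, DESeq2), only just a call. The log2 ratio of KLF2 to KLF4 overlapped between groups (-0.64 ± 0.95 and -0.96 ± 0.52, SD, n = 3, exact permutation p = 0.7, adjusted 0.7).

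KLF5, a transcription factor that promotes proliferation in gut epithelium and smooth muscle (ENSG00000102554, chr13:73054976-73077541, plus strand), gave 113, 89 and 52 estimated counts in DMSO and 152, 164 and 159 in Chelator, or 0.5, 0.471 and 0.266 TPM against 0.646, 0.687 and 0.806 TPM. DMSO replicate 3 was the lowest, and no DMSO library reached the Chelator range. The log2 fold change was 0.76 ± 0.295 (SE, adjusted p = 0.0289, DESeq2), under the fold threshold. With 1 library left out, 5 of the 6 fits put the adjusted p above 0.05 (log2 fold changes of 0.54 without DMSO replicate 3, 0.67 without Chelator replicate 3, 0.77 without DMSO replicate 2 and 0.81 without Chelator replicate 1 or 2), and also with the centring (0.66, adjusted p = 0.0693, DESeq2).

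KLF7, a factor of neurons and sensory ganglia (ENSG00000118263, chr2:207074137-207173856, minus strand), had the fewest estimated counts of the 10, at 12, 4 and 2 in DMSO and 59, 53 and 25 in Chelator. Its TPM was 0.0401, 0.00793 and 0.153 in DMSO and 0.332, 0.268 and 0.407 in Chelator. All Chelator libraries were higher on both scales, yet the DMSO library with the fewest counts had the highest TPM. In that library both counts were placed on KLF7-209, a transcript of 438 bases, and over all libraries the transcripts used gave mean effective lengths, in bases, of 3713, 7533 and 189 for DMSO against 2138, 2227 and 815 for Chelator. The log2 fold change was 3.23 ± 0.868 (SE, adjusted p = 8.33e-04, DESeq2) with these lengths in the fit and 2.70 without them, and it ran from 2.37 without DMSO replicate 2 to 3.83 without DMSO replicate 3 as single libraries were left out. The ratio of mean TPM was 5.01. KLF7 had the largest fitted change of the 10 and the widest error, so its place above KLF4 and KLF10 was not resolved by these counts. The log2 ratio of KLF6 to KLF7 overlapped between groups (7.76 ± 2.17 and 5.97 ± 0.28, SD, n = 3, exact permutation p = 0.3, adjusted 0.4). The genes nearest to the KLF7 pattern were MEGF6, CXCL3 and ENSG00000287510, with root mean square log2 differences of 0.688, 0.741 and 0.785, much looser than those for KLF10.

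KLF3, the CTBP-binding repressor and a KLF1 target in erythroid cells (ENSG00000109787, chr4:38664197-38701517, plus strand), was the most abundant member in DMSO, at 24, 28.7 and 24.6 TPM, and stood at 21, 22 and 21.6 TPM in Chelator. No Chelator library reached the DMSO range. Normalized counts went down from 8417 ± 47.8 to 6911 ± 45.7 (SD, n = 3), which is -0.28 ± 0.0626 on the log2 scale (SE, adjusted p = 3.10e-05, DESeq2), a small and tightly measured fall. Of its 31-base sequences 2.57% also occurred in other genes, the highest share among the members, with a processed copy, KLF3P1, first among them, so a small part of its reads could be split. KLF1 itself fell in the same libraries by 0.72 on the log2 scale (adjusted p = 4.54e-23, DESeq2), from 82 ± 4.89 to 50.9 ± 2.81 TPM (SD, n = 3). With GC and length trends removed its change was -1.08 (adjusted p = 5.95e-76, DESeq2), past the fold threshold. In every other alternative KLF1 was not called, with changes from -0.82 to -0.67.

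**Figure D2:**
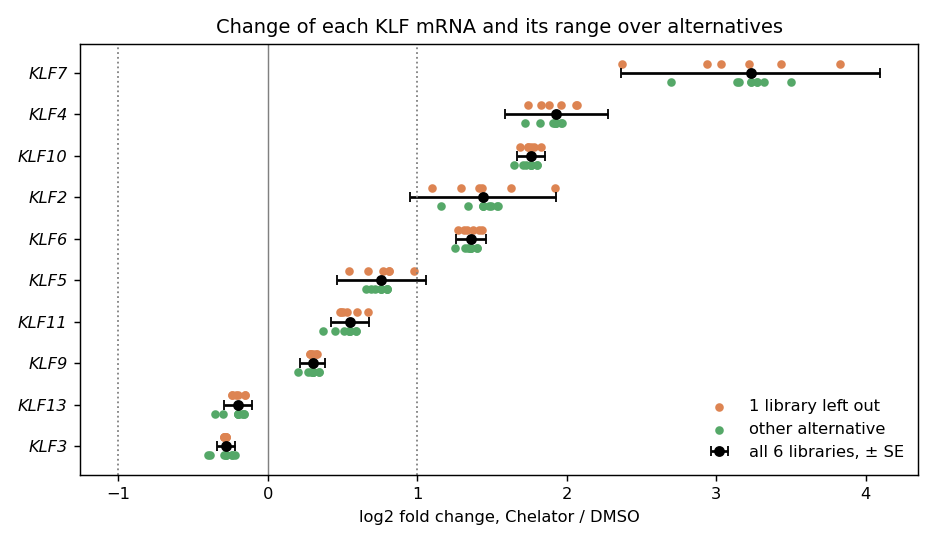
Log2 fold change of each KLF gene, Chelator over DMSO, with its standard error from the fit of all 6 libraries (black), from fits without 1 library (orange) and from the other alternatives (green), and dotted lines at the fold threshold. KLF6 and KLF10 keep a narrow range above 1 in all fits, while KLF7 spreads from 2.37 to 3.83 and KLF2 from 1.10 to 1.92.

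The rises and the fall together changed the order of the members. In DMSO the order by TPM was KLF3, KLF6, KLF10, KLF11, KLF9, KLF13, KLF5, KLF4, KLF2 and KLF7, where KLF10 with KLF11, KLF9 with KLF13, KLF4 with KLF2 and KLF2 with KLF7 overlapped as neighbors, and KLF6 with KLF11 and KLF4 with KLF7 overlapped across 1 rank between them. With the chelator it was KLF10, KLF3, KLF6, KLF11, KLF9, KLF13, KLF5, KLF4, KLF7 and KLF2, where KLF3 with KLF6, KLF5 with KLF4 and KLF7 with KLF2 overlapped as neighbors. KLF10 thus moved from near KLF11 to the top, above the range of KLF3, although the highest KLF6 library and the lowest KLF10 library both stood at 22.5 TPM. The summed level of the 10 was 52.1, 62.3 and 54.5 TPM in DMSO and 88.3, 84 and 86.1 TPM in Chelator, and the groups did not overlap. KLF3 held 45.7% ± 0.542 of that sum in DMSO and 25% ± 1.22 in Chelator, whereas KLF10 went from 11.9% ± 1.02 to 26.7% ± 1.09 and KLF6 from 14.1% ± 0.788 to 24% ± 1.34 (SD, n = 3). The share of KLF11 stayed within its spread, at 11.1% ± 0.773 and 10.8% ± 1.26. The sum was below the level of KLF1 alone in DMSO and above it in Chelator.

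**Figure D3:**
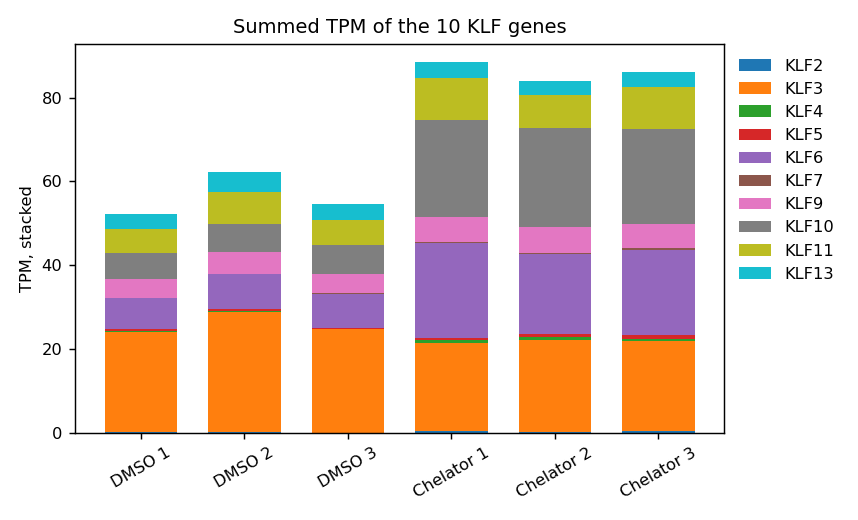
Summed TPM of the 10 KLF genes in each library as stacked bars, 1 color per gene. The 3 Chelator bars reach 84 to 88.3 TPM and the 3 DMSO bars 52.1 to 62.3 TPM, with KLF10 (gray) and KLF6 (purple) making most of the gain.

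KLF genes are annotated with transcripts whose proteins differ in their zinc fingers, so the share of each transcript was examined as well. KLF6-206, the main KLF6 transcript (283 codons, 3 C2H2 zinc-finger matches in its annotated coding sequence), held 44.6%, 52.2% and 43.3% of KLF6 TPM in DMSO and 59.3%, 63.8% and 57.8% in Chelator. KLF6-207, which skips the 124-base exon at chr10:3780106-3780229 and so reads another frame with 237 codons and 1 match, held 42.3%, 38.8% and 42% in DMSO and 27.9%, 25.1% and 29% in Chelator. Both shares were apart between the groups, while the estimated counts of both transcripts were higher in Chelator, at 3399 to 4433 against 967 to 1175 for KLF6-206 and at 1634 to 2059 against 863 to 975 for KLF6-207.

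KLF3-203 is a short form that ends in a 1023-base exon (chr4:38689729-38690751) running past the splice site used by KLF3-201, and its 232 codons hold 0 zinc-finger matches where the 345 codons of KLF3-201 hold 3. It took 5.2%, 6.66% and 6.31% of KLF3 TPM in DMSO and 12.4%, 13.7% and 13.9% in Chelator, while KLF3-201 went from 92.1% ± 0.696 to 84.8% ± 1.46 (SD, n = 3). Its estimated counts were 162, 206 and 174 in DMSO and 358, 445 and 382 in Chelator, so the short form was higher in every Chelator library although KLF3 as a whole was lower.

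KLF11-201 and KLF11-205 differ in their first exon (chr2:10043550-10043758 and chr2:10044245-10044451), and both code for 3 zinc-finger matches. The share of KLF11-201 was 50.2% ± 4.74 in DMSO and 63.8% ± 9.55 in Chelator, with overlapping libraries. KLF11-205 held 51.1%, 34.4% and 27% in DMSO and 15.9%, 26.4% and 0% in Chelator, groups that did not overlap by a narrow margin. KLF11-203, a short annotated form of 653 bases with 0 zinc-finger matches, held 0% to 14.7% in DMSO and 0% to 25.4% in Chelator, on at most 103 estimated counts. KLF10-201 held 94.6% to 97.3% of KLF10 in all libraries, and KLF2-201, KLF5-201, KLF9-201 and KLF13-201 held 99.2% or more of their genes. In KLF4 and KLF7 the split was unstable: the retained-intron transcript KLF4-204 had 16 estimated counts in DMSO replicate 3, 43 in Chelator replicate 3 and 0 in the other 4 libraries. KLF4-201 had 100%, 100% and 34.9% in DMSO and 77.1%, 100% and 54% in Chelator, so in Chelator replicate 1 a part of the gene was placed on other transcripts.

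For KLF7, KLF7-201, the long form with 302 codons and 3 zinc-finger matches, held 32%, 100% and 0% in DMSO and 5.58%, 7.09% and 5.75% in Chelator, on at most 13 estimated counts. KLF7-205 (3 matches) was listed in Chelator replicate 1 alone, with 33 estimated counts. KLF7-203 had at most 13 counts, KLF7-206 at most 3 and KLF7-209 at most 5, so no KLF7 share was read as a difference between groups.

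By edgeR's transcript usage test 4 members could be tested and 0 were called, against 9.22% of the 11938 genes tested. Adjusted p-values were 0.407 for KLF3, 0.677 for KLF6 and 1 for KLF10 and KLF11 (edgeR), and only KLF3 and KLF6 had an unadjusted p below 0.2 (0.083 and 0.182). The limma version of the test called 3, namely KLF3 (adjusted p = 1.27e-05), KLF6 (4.38e-04) and KLF11 (0.0485), where it called 26.7% of all genes. The tools therefore disagree on KLF3, KLF6 and KLF11, and the shifts of these genes are given as measured shares rather than as calls.

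**Figure D4:**
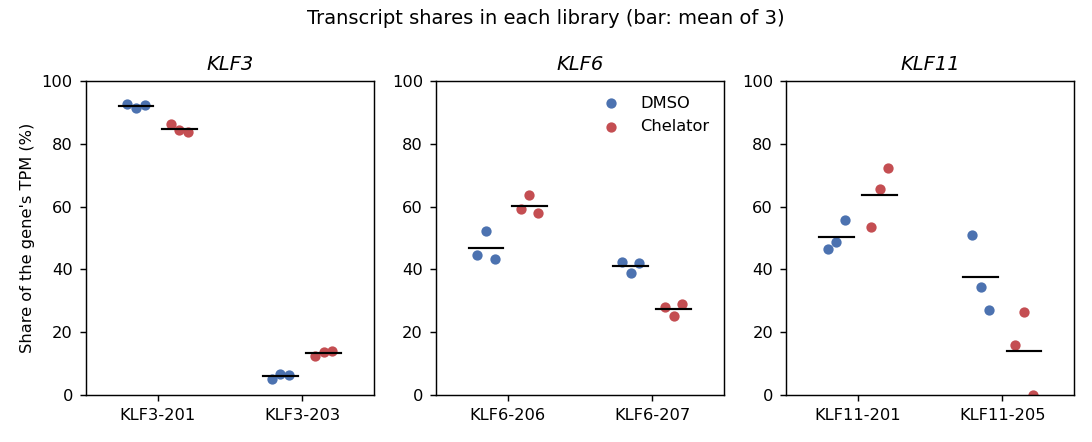
Share of the gene's TPM, in percent, held by named transcripts of KLF3, KLF6 and KLF11 in each library, DMSO in blue and Chelator in red with a bar at the mean of 3. The mean of KLF6-206 is 46.7% in DMSO and 60.3% in Chelator and that of KLF3-203 is 6.06% and 13.3%, both with no overlap between groups, while KLF11 libraries are widely scattered.

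Several members have RNA on the other strand, and the strand setting of the libraries was not given in the sources used here, so reads from a gene and its antisense partner cannot be told apart where exons overlap. KLF3-AS1, which overlaps KLF3, had 329 to 368 estimated counts in DMSO and 326 to 440 in Chelator, with a log2 fold change of -0.04 ± 0.171 (SE, adjusted p = 0.906, DESeq2) whose sign turned under other scalings. MYOSLID, a long noncoding RNA that overlaps KLF7 exons, had 1 estimated count in each DMSO library and 10, 21 and 21 in Chelator (adjusted p = 0.0118, DESeq2, but 0.0771 without Chelator replicate 3). KLF7-IT1, inside a KLF7 intron, had 0 counts in DMSO and 3, 1 and 6 in Chelator. ENSG00000289987, opposite KLF4, had at most 4 counts in a library, and ENSG00000271787, opposite KLF11, at most 5. KLF2-DT and ENSG00000224342 were at 0 in all 6.

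Other KLF genes and the related SP factors, which bind the same GC boxes, moved in both directions. Among 8 other KLF genes KLF12, a CTBP-binding repressor, was called higher (13.7 ± 4.98 to 54.8 ± 17.6 normalized counts, adjusted p = 7.64e-04, DESeq2) and KLF15, a regulator of gluconeogenesis and muscle metabolism, was called lower (446 ± 12.1 to 104 ± 46.8, adjusted p = 1.78e-14, DESeq2). At the adjusted p alone 1 rose and 3 fell, and the median log2 fold change was -0.01 over the 6 with an adjusted p and 0.14 over all 7 tested. Of 9 SP genes SP6, a factor of tooth and skin epithelium, was called higher, from 935 ± 36.7 to 11569 ± 1354 normalized counts (SD, n = 3, adjusted p = 8.67e-300, DESeq2), with 2 higher and 3 lower at the adjusted p and a median of -0.18 over the 8 with an adjusted p and 0.07 over all 9.

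Corepressors and coactivators that KLF proteins bind showed 0 calls among 10 genes, with 4 higher and 2 lower at the adjusted p (DESeq2). Over all genes 10.8% were called and 37.7% passed the adjusted p, in either direction, and these shares serve for the other lists as well. The 2 lower were SIN3A at -0.40 (adjusted p = 5.05e-05) and HDAC2 at -0.57 (1.89e-15, both DESeq2). The 4 higher were HDAC1 at 0.31, RCOR1 at 0.35, KAT2B at 0.43 and CREBBP at 0.26 (adjusted p from 6.16e-07 to 0.0204, DESeq2). CTBP1 (0.11), CTBP2 (-0.15), SIN3B (-0.12) and EP300 (-0.31) did not pass. Of 12 kinases and factors upstream of KLF2 and KLF4, 5 were higher and 2 lower at the adjusted p. MEF2B was called, from 120 ± 43.3 to 836 ± 96.1 normalized counts (SD, n = 3), a value that is uncertain because a readthrough gene shares its exons, and MAPK7 was at 0.60 (adjusted p = 0.00414, DESeq2). MEF2A (0.36), MEF2D (0.73) and ELK1 (0.53) were the other higher genes, and MEF2C (-0.29) and ELK3 (-0.42) were the lower ones. MAP3K2 (-0.06), MAP3K3 (0.04), MAP2K5 (0.01), SRF (0.07) and ELK4 (-0.09) did not pass. Of 7 ubiquitin ligases that target KLF proteins FBXO32 was called higher (13.6 ± 12.5 to 141 ± 44.7 normalized counts, log2 fold change 3.61, adjusted p = 2.10e-10, DESeq2), where the log2 fold change was 2.21 without the length offset and 4.43 without DMSO replicate 1. WWP1, which marks KLF2 and KLF5 for breakdown, fell by 0.69 on the log2 scale (adjusted p = 3.73e-07, DESeq2).

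Known target genes of the members, 12 of them tested, included 6 called higher, where 8.18% of all genes were. At the adjusted p alone the same 6 were higher and 1 was lower (NOS3, at -0.56), against 19.5% and 18.3% of all genes. This list too was chosen with earlier results known, so the counts are no test of it. CDKN1A, the cell cycle inhibitor that KLF4 and KLF6 activate, went from 537 ± 74.6 to 6125 ± 471 normalized counts, and CCND1, which KLF4 represses, from 1510 ± 104 to 4615 ± 314 (SD, n = 3). SMAD7, a KLF10 target in TGF-beta signaling, rose by 2.58 on the log2 scale (adjusted p = 3.59e-56, DESeq2), PDGFA, a KLF5 target, by 2.32 (2.56e-63), L1CAM, a KLF7 target, by 2.89 (2.95e-08) and S1PR1, a KLF2 target, by 2.49 (4.00e-04, all DESeq2). Of the other endothelial KLF2 targets NOS3 was the one lower, and THBD was at 0.21 (adjusted p = 0.603, DESeq2). LGALS3, which KLF3 represses, was at 0.40 with an adjusted p of 0.407 (DESeq2), and CCL5 was at 0.42 (0.115, DESeq2). No direction of KLF regulation is stated here for SMAD7, PDGFA, L1CAM or S1PR1, so their rises are not matched to one. These genes answer to many other factors, and whether the KLF members had a part in their changes was not tested.

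**Figure D5:**
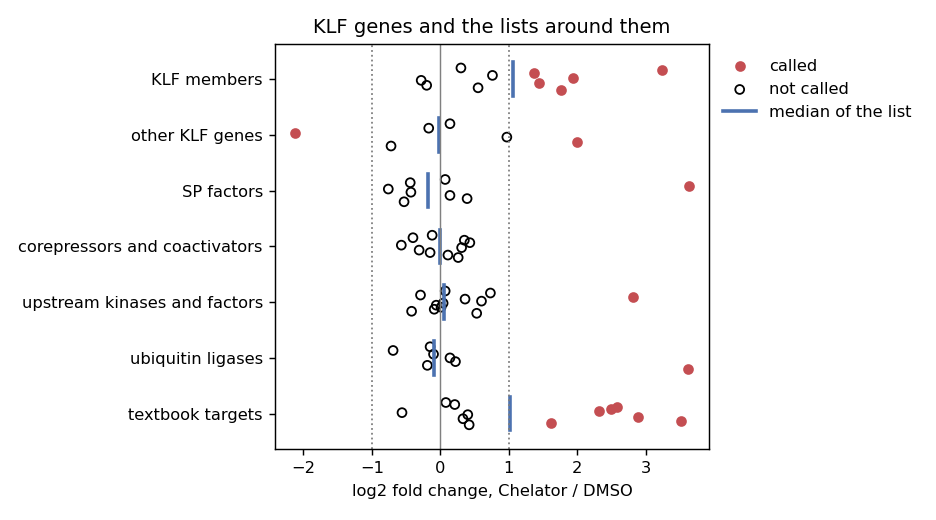
Log2 fold change, Chelator over DMSO, of the 10 KLF genes and of the genes with an adjusted p in 6 related lists, filled where called and open where not, with a bar at each list's median and dotted lines at the fold threshold. The medians of the 10 members (1.06) and of the target list (1.02) lie to the right of those of the other 5 lists drawn, which run from -0.18 to 0.05 over the genes shown.

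All 10 K562 erythroid markers were detected, with a summed level, mostly globin mRNA, of 16278 to 17796 TPM in DMSO and 21447 to 22881 TPM in Chelator. At the adjusted p, HBG1, HBG2 and HBE1 were higher, while TAL1 (-0.28, adjusted p = 3.84e-04), NFE2 (-0.40, 1.24e-07) and EPOR (-0.44, 2.36e-05, all DESeq2) were lower. Markers of other cells were low but moved with the treatment: the lymphocyte list summed to 11.8 to 17.8 TPM in DMSO and 42.4 to 44.3 TPM in Chelator, with 2 of 6 genes called higher (CD3D and CD3E) and MS4A1 at 0 throughout, and the fibroblast list to 2.77 to 3.42 and 5.37 to 5.74 TPM, with 2 of 6 called higher (COL1A1 and PDGFRB), COL1A2 lower at -0.48 (adjusted p = 0.0026, DESeq2), COL3A1 at -0.07 and DCN at 1.24 not passing, and LUM at 10 counts or fewer. The medians of the log2 fold changes were 1.19 for the tested lymphocyte markers and 1.24 for the tested fibroblast markers, both above that of the KLF members. The part of these in the KLF changes was not tested. Mean fragment length, read from the deposited effective lengths, was 253 to 265 bases in DMSO and 201 to 219 bases in Chelator, a difference between the groups that cannot be told apart from the treatment.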

How the data were processed

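Libraries were grouped by the treatment and replicate number in the sample labels. The series text calls the 3 libraries per group biological replicates, and nothing further says how the cultures were separated. Per the study's methods the authors ran salmon 1.10.2, and the deposited files give an estimated count and a TPM value per transcript, with an effective length. The genome build named was hg38, and the transcript annotation release was not given in the sources used here. Of 252045 transcript IDs, 251142 matched GENCODE release 44 exactly, 470 matched by ID with another version and 433 did not match (0.139% to 0.150% of counts).

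Estimated counts were summed per gene and rounded. DESeq2 1.42.0 (Wald test, mean effective length per gene and library as an offset) was fitted to 26074 genes with a total above 10, and the thresholds for a call were 0.05 for the Benjamini-Hochberg adjusted p and 1 for the size of the log2 fold change. Transcript usage was tested with edgeR 4.0.16 on transcripts with at least 10 counts in 3 libraries, calling an adjusted p under 0.05 with a share change over 5 percentage points, and with limma 3.58.1. Paralog ratios were compared by exact permutation over libraries. Within-group library pairs differed beyond sampling noise, so none was counted as a duplicate. Procedures were tested on simulated data. For transcript usage with 200 changed genes, edgeR recovered 166 with 4 false calls of 11592 genes when each gene had 1 dispersion, and 187 with 116 false calls of 11480 when each transcript had its own. The limma test recovered 189 with 17 false calls and 194 with 54 in the same simulations. Recovery of shifts as small as those measured in KLF3, KLF6 and KLF11 was not tested.

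Named genes were all members, called genes of the lists, genes named after a member or overlapping its exons, and nearest patterns. Others were named after their values were seen. These were the corepressors and coactivators, KLF1, the upstream kinases and factors and cell type markers that were not called, and WWP1, NOS3, THBD, LGALS3 and CCL5. Transcripts with a mean share of at least 10% in either group were described. Members and lists were chosen with earlier results of these data known. Alternatives were edgeR counts tests, scaling, filters, length and GC corrections, a replicate block and leaving out each library. Zinc-finger matches were counted in the annotated coding sequences as 2 cysteines 2 to 4 residues apart, 12 residues, and 2 histidines 3 to 5 residues apart.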

Additional observations from a re-analysis of the deposited data

How the results depend on the processing

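Against a log2 fold change of 1, DESeq2 called 674 genes in place of 2646, 2 members in place of 5 as called higher, and 2 in place of 9 at the adjusted p, by the stricter hypothesis of that test. In the other settings the members called higher numbered 4 or 5 (4 without DMSO replicate 3, Chelator replicate 1 or Chelator replicate 3, where KLF2 was lost), and 0 members were called lower. For transcript usage limma called 3184 genes and 3 members where edgeR called 1101 and 0, and edgeR called 539 (without Chelator replicate 3) to 1063 genes as single libraries were left out, 592 without Chelator replicate 2. The cause was not tested.

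The log2 change of KLF3-AS1 was 0.01 with edgeR and with TMM factors, and -0.13 to 0.08 without single libraries. The KLF2 to KLF4 ratio changed by -0.77 to 0.18 without single libraries, the positive value without DMSO replicate 1. For KLF6 to KLF7 the change of -1.80 became -2.81 without DMSO replicate 3 and -0.66 without DMSO replicate 2. Of all called genes 75.9% were higher, 67.4% after centring on the mean change (median log2 change -0.0895) and 65.2% after GC and length trends were removed (-0.0824).

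Same-numbered DMSO and Chelator libraries had correlations of -0.0737, 0.134 and 0.106 in their deviations, and differently numbered ones ran from -0.164 to 0.0771. The positive same-numbered values were thus the highest, but every value was small, and the numbers were not taken as pairs. The replicate block called 2345 genes and 5 members as higher, and under it KLF5 was at 0.80 (adjusted p = 0.0731, DESeq2). Depth limits KLF2, KLF4, KLF5 and KLF7, which had at most 166 estimated counts in a library.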
